A study of Mus musculus with 12 samples.

Results

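Acute-phase and antimicrobial peptide genes are followed here in the skin of C3H/HeJ mice: S100a8, S100a9, Saa1, Saa2, Saa3, Lcn2, Camp, Defb3, Defb4 and Defb14. These 10 genes of the 23359 in the deposited table were taken by name. S100a8 and S100a9 encode the subunits of calprotectin, a calcium-binding protein that withholds metals from microbes and is abundant in neutrophils and in stressed epidermis. The serum amyloid A genes Saa1, Saa2 and Saa3 encode small lipid-bound acute-phase proteins, Lcn2 encodes a carrier that captures bacterial iron chelators, Camp encodes the mouse cathelicidin, and Defb3, Defb4 and Defb14 encode beta-defensins, short cationic peptides of epithelia.

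In skin these genes form much of the inducible chemical defence. Keratinocytes switch them on when the barrier is breached or when they meet cytokines of the interleukin-1, interleukin-36, interleukin-17 and interleukin-20 families, and the signal runs largely through NF-kB, C/EBP and STAT transcription factors. Neutrophils carry calprotectin, lipocalin 2 and cathelicidin as protein. Their lipocalin 2 and cathelicidin are stored, made mostly from transcripts of neutrophil precursors in the marrow. The liver is the main source of circulating serum amyloid A1 and A2, whereas Saa3 is induced in peripheral tissues such as fat, macrophages and epithelia.

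RNA sequencing libraries were made from 4 groups of 3 skin samples each. Treated skin was taken at 20 weeks from fibrotic skin given CD36highCD90+ fibroblasts, and it was set beside 20-week fibrotic skin, 6-week fibrotic skin and normal skin. All mice were C3H/HeJ, an inbred strain whose Tlr4 allele leaves it poorly responsive to endotoxin. The labels give neither the agent that caused fibrosis, nor a time point for normal skin, nor the source and number of the transplanted cells. They also do not state that the libraries of a group came from different animals, so a p-value here reflects only how far these samples vary.

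Values are FPKM, fragments counted per unit of transcript length and of library size, and levels of different genes are compared on this per-length scale. The depth of a library cannot be read from the table. Genes at 1 FPKM or more numbered 12745 to 13364 in treated libraries, 12658 to 12918 in fibrotic libraries of 20 weeks, 12899 to 13052 in fibrotic libraries of 6 weeks and 13035 to 13052 in normal libraries. Treated libraries varied most: genes had a median SD, in log2 units, of 0.239 among treated libraries, 0.148 among fibrotic libraries of 20 weeks, 0.142 among those of 6 weeks and 0.148 among normal libraries. Skin was recognisable in all groups, since the summed FPKM of 10 epidermal and fibroblast markers was 5507 to 8552 in treated, 6136 to 9060 in fibrotic 20-week, 8291 to 9926 in fibrotic 6-week and 3855 to 4645 in normal libraries. Libraries were sequenced in pools of 5, and the pool of each library is not labelled, so a pool effect was not tested. In whole tissue, more cells of a type and more RNA per cell cannot be told apart.

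The genes lie in clusters on the mouse genome (GRCm38.p6 coordinates from RefSeq, the assembly that the submitters' notes call mm10). S100a8 (chr3:90669071-90670034, plus strand) and S100a9 (chr3:90692630-90695721, minus strand) lie 22.6 kb apart, and the 3 serum amyloid genes fall within 42.3 kb of chromosome 7. The 3 defensin genes fall within 135.1 kb of chromosome 8, with Lcn2 alone on chromosome 2 and Camp alone on chromosome 9. The 250 bases before the RefSeq transcription start are printed for 6 genes, chosen because the calprotectin pair and the serum amyloid genes allow neighbours to be compared and Defb3 was listed at 0 in all normal libraries. Capitals mark matches, on either strand, to a C/EBP motif (TTNNGNAA) or an NF-kB motif (GGGNNNNNCC).
S100a8: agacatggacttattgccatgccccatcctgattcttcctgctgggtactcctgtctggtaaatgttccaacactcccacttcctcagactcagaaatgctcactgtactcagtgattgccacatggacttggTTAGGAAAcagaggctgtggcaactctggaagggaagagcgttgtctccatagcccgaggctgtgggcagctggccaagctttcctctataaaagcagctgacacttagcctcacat
S100a9: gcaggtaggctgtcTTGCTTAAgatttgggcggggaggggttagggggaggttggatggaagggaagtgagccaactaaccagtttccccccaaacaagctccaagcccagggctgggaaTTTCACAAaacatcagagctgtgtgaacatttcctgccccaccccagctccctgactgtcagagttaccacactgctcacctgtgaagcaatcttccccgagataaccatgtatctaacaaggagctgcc
Saa1: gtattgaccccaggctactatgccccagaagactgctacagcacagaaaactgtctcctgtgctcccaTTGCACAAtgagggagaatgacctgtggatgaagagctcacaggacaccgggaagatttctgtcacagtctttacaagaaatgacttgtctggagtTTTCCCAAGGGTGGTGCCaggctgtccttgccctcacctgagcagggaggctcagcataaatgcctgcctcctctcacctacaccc
Saa2: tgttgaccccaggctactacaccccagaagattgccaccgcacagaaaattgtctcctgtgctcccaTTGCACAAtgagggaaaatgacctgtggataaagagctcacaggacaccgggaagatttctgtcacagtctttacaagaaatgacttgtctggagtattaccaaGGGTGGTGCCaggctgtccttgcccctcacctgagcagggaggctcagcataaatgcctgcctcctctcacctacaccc
Saa3: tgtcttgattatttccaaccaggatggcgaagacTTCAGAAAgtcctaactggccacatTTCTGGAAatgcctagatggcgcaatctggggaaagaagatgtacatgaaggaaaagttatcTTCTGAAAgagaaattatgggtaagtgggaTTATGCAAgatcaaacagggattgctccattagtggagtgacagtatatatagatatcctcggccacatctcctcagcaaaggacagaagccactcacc
Defb3: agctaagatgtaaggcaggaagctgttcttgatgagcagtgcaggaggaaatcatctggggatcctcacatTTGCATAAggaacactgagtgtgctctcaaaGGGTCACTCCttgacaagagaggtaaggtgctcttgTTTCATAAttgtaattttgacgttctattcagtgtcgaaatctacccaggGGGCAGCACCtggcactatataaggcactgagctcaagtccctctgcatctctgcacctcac
In RefSeq these windows are chr3:90668821-90669070 (plus strand) for S100a8, chr3:90695722-90695971 (minus strand) for S100a9, chr7:46742981-46743230 (minus strand) for Saa1, chr7:46751583-46751832 (plus strand) for Saa2, chr7:46715677-46715926 (minus strand) for Saa3 and chr8:19293111-19293360 (plus strand) for Defb3. Each window precedes the start used in the RefSeq promoter table. For Saa3 that start lies inside the RefSeq gene interval, which reaches 3.69 kb further upstream, and the Saa1 window lies mostly inside its own gene interval.

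Of the 10 genes, 8 had an upstream window in the RefSeq table, all but Defb4 and Defb14. The C/EBP motif was found in 7 of these 8, against 36.9% of the 32851 windows of all genes, and Saa3 held 4 matches. The NF-kB motif was found in 4 of the 8, namely Saa1, Saa2, Lcn2 and Defb3, against 45.8% of all windows. In Saa1 the NF-kB match began directly after a C/EBP match, at base 78 before the start. The STAT motif TTCNNNGAA and the AP-1 motif TGANTCA were in none of the 8 windows, against 7.02% and 6.75% of all windows. These short motifs occur often, and a match describes letters and not a bound site. Saa1 and Saa2 were 94.8% identical over their windows and 93.9% over their transcripts, and RefSeq lists each name as a synonym of the other, so the split of fragments between them is uncertain.

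S100a8 and S100a9 were the most abundant of the 10 genes in every fibrotic library. S100a8 stood at 724, 22.4 and 9.58 FPKM in treated skin, at 1995, 293 and 205 FPKM in fibrotic skin at 20 weeks, at 1804, 2346 and 833 FPKM in fibrotic skin at 6 weeks, and at 6.13, 5.96 and 28.4 FPKM in normal skin. All 6 fibrotic libraries lay above all 3 normal ones, while the treated libraries ran from the normal range up to the fibrotic one. In treated skin, replicate 1 stood inside the fibrotic 20-week range and the other two libraries were within or below the level of the highest normal library. S100a8 ranked 40 by FPKM among 22574 genes in fibrotic 20-week replicate 1 and 41 in fibrotic 6-week replicates 1 and 2, against ranks of 2919 to 8955 in normal libraries (short RNAs left out).

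Fold changes are on the scale of log2(FPKM + 1), which understates changes of genes near 0. They were tested with limma in a single fit of all libraries, and a gene was called at a Benjamini-Hochberg adjusted p under 0.05 over 13761 genes. In fibrotic skin S100a8 rose by 7.07 ± 1.43 log2 units (SE, adjusted p = 0.00437) at 6 weeks and by 5.45 ± 1.43 (adjusted p = 0.0166) at 20 weeks, both relative to normal skin. Without normal replicate 1, or without fibrotic 20-week replicate 1, the 20-week difference of S100a8 missed the threshold, with an adjusted p of 0.0546 and 0.0646. Treated skin against fibrotic skin at 20 weeks gave -3.13 with a 95% interval of -6.30 to 0.04 (adjusted p = 0.149), and treated against normal skin gave 2.32 (adjusted p = 0.265). The step between the fibrotic time points, 20 weeks against 6 weeks, was -1.62 (adjusted p = 0.559).

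S100a9 followed its partner closely. It stood at 490.2, 31.7 and 17.6 FPKM in treated skin, at 1235, 186 and 174 FPKM in fibrotic skin at 20 weeks, at 1531, 1679 and 484 FPKM at 6 weeks, and at 8.19, 10.0 and 31.9 FPKM in normal skin. Again the treated libraries were split, with replicate 1 among the fibrotic values and replicates 2 and 3 at or under the highest normal value. S100a9 rose by 6.17 ± 1.20 (SE, adjusted p = 0.00356) at 6 weeks and 4.52 ± 1.20 (adjusted p = 0.0171) at 20 weeks against normal skin. The 20-week call of S100a9 also missed the threshold without normal replicate 1 (adjusted p = 0.0578) or fibrotic 20-week replicate 1 (adjusted p = 0.0659). Treated against fibrotic skin at 20 weeks gave -2.36, with a 95% interval of -5.01 to 0.295 (adjusted p = 0.187).

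The ratio of the subunits' transcripts also differed in level. S100a8 over S100a9 was 1.48, 0.707 and 0.544 in treated libraries, 1.62, 1.58 and 1.18 in fibrotic 20-week libraries, 1.18, 1.397 and 1.72 in fibrotic 6-week libraries, and 0.748, 0.596 and 0.888 in normal libraries. Every fibrotic library had more S100a8 than S100a9 and every normal library had less, with treated replicate 1 on the fibrotic side and treated replicates 2 and 3 on the normal side. An exact 2-sided permutation test of the log2 ratio gave p = 0.1 for each fibrotic time point against normal skin, the smallest value that 3 against 3 libraries allow. The same exact test gave p = 0.2 for treated against fibrotic skin at 20 weeks and p = 0.9 for treated against normal skin, among 5 comparisons in all, none of which could pass 0.05.

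**Figure D1:**
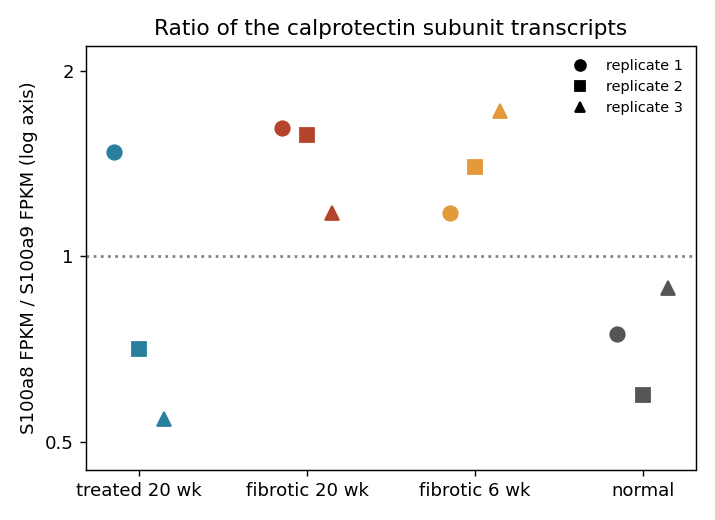
Ratio of S100a8 to S100a9 in FPKM (vertical log axis) for the 3 libraries of each group (horizontal axis), 1 point a library, with the dotted line at equal levels. All 6 fibrotic libraries lie above the line and all 3 normal libraries below it, and treated replicate 1 lies above while treated replicates 2 and 3 lie below.

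Saa1 was called at both fibrotic time points and in both comparisons of treated skin. It stood at 5.72, 2.72 and 0.656 FPKM in treated skin, at 7.14, 11.9 and 13.4 FPKM in fibrotic skin at 20 weeks, at 8.18, 11.5 and 3.76 FPKM at 6 weeks, and at 0.109, 0 and 0.172 FPKM in normal skin. Treated libraries lay between the groups, all under the lowest fibrotic 20-week library and all over the highest normal one. Saa1 rose by 3.40 ± 0.48 (SE, adjusted p = 0.00126) at 20 weeks and 2.905 ± 0.482 (adjusted p = 0.00168) at 6 weeks against normal skin. In treated skin it was lower than in fibrotic skin at 20 weeks (log2 fold change -1.73 ± 0.48 SE, adjusted p = 0.039) and higher than in normal skin by 1.66 ± 0.48 (adjusted p = 0.0361).

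These last Saa1 calls were near the threshold. Across 20 other settings the treated against fibrotic difference ran from -2.21 to -1.20 and was called in 7, and the treated against normal difference was called in 11. Leaving out treated replicate 2 or 3, or any fibrotic 20-week library, ended the call against fibrotic skin, with adjusted p from 0.0709 to 0.123. Without any normal library or without fibrotic 6-week replicate 1, which enter only through the pooled spread, the adjusted p was 0.0527 to 0.0559. Leaving out treated replicate 1 or 2, or any normal library, ended the call against normal skin (adjusted p from 0.0751 to 0.0977), as did leaving out fibrotic 6-week replicate 1 (adjusted p = 0.0512) or fibrotic 20-week replicate 2 (adjusted p = 0.0522).

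Saa2, the near-identical neighbour of Saa1, was scarce. It stood at 0.145, 0.256 and 0.1101 FPKM in treated skin, at 0.327, 0.417 and 0.374 FPKM in fibrotic skin at 20 weeks, at 1.63, 1.45 and 0.333 FPKM at 6 weeks, and was listed at 0 in all normal libraries. It therefore did not pass the filter of 1 FPKM in 3 libraries and has no result in the main test. In a fit of 20078 genes without that filter, limma called it in fibrotic skin at 6 weeks against normal skin (adjusted p = 0.00607) and in none of the other 4 comparisons. Saa1 made up 83.4% to 97.5% of the summed Saa1 and Saa2 FPKM in treated and fibrotic libraries. With both summed, treated against fibrotic skin at 20 weeks gave -1.71 (adjusted p = 0.0407), a setting chosen after seeing the data.

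Saa3 had its highest values at 6 weeks. It stood at 8.56, 0.702 and 3.43 FPKM in treated skin, at 22.5, 2.16 and 1.24 FPKM in fibrotic skin at 20 weeks, at 464, 435 and 12.2 FPKM at 6 weeks, and at 0.206, 0.462 and 0.541 FPKM in normal skin. At 6 weeks, replicates 1 and 2 were more than an order of magnitude above every other library, and replicate 3 lay under the highest fibrotic 20-week library, so the fibrotic time points overlapped. Saa3 rose by 6.64 ± 1.33 (SE, adjusted p = 0.00424) in fibrotic skin at 6 weeks against normal skin. At 20 weeks the difference from normal skin was 1.98 (adjusted p = 0.273), although all 3 fibrotic libraries were above all 3 normal ones.

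Fibrotic skin at 20 weeks against 6 weeks gave -4.66 for Saa3, with a 95% interval of -7.62 to -1.70 and an adjusted p of 0.121. Without fibrotic 6-week replicate 3 the difference was -6.35 and passed (adjusted p = 0.0345). Treated against fibrotic skin at 20 weeks gave -0.40 (adjusted p = 0.856). Relative to S100a8, Saa3 was at 0.257 and 0.186 of its FPKM in fibrotic 6-week replicates 1 and 2, 0.0146 in replicate 3, 0.00608 to 0.0113 in fibrotic 20-week libraries and 0.0191 to 0.0776 in normal libraries. The highest ratio was 0.358 in treated replicate 3, where S100a8 was at 9.58 FPKM, against 0.0118 and 0.0313 in treated replicates 1 and 2.

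Lcn2 was called in no comparison. It stood at 18.3, 3.76 and 8.08 FPKM in treated skin, at 40.8, 5.17 and 3.82 FPKM in fibrotic skin at 20 weeks, at 11.5, 8.10 and 2.67 FPKM at 6 weeks, and at 4.25, 1.39 and 1.93 FPKM in normal skin. Each group overlapped each other group, and the highest value came from fibrotic 20-week replicate 1, the same library that was highest at that time for S100a8, Saa3 and Defb3. Log2 fold changes against normal skin were 1.501 in treated skin (adjusted p = 0.21), 1.69 in fibrotic skin at 20 weeks (adjusted p = 0.133) and 1.17 at 6 weeks (adjusted p = 0.277). The 95% interval at 20 weeks ran from -0.13 to 3.51. With the replicate number as a block the 20-week difference passed (adjusted p = 0.0339), but it is not known that the numbers pair these libraries.

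Camp was close to absent. It was listed at 0.329, 0.0582 and 0.735 FPKM in treated skin, at 0 in all 3 fibrotic 20-week libraries, at 0.665, 0.246 and 0 FPKM at 6 weeks, and at 0.126, 0.173 and 0.319 FPKM in normal skin. No library reached 1 FPKM, so Camp was not tested, and in the fit without a filter its adjusted p was at least 0.195 in each comparison. Treated and normal libraries all lay above the zeros of fibrotic skin at 20 weeks, but a 0 in such a table can also be a failed estimate: Krt1 and Krt10, structural keratins of all epidermis, are listed at 0 in some libraries.

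Defb14, the mouse gene most like human beta-defensin 3, was the most abundant defensin among the 10 genes. It stood at 122, 40.8 and 11.7 FPKM in treated skin, at 210.4, 142 and 86.0 FPKM in fibrotic skin at 20 weeks, at 356, 772 and 143 FPKM at 6 weeks, and at 12.3, 28.7 and 36.0 FPKM in normal skin. Both fibrotic groups lay wholly above normal skin, and treated skin overlapped both of its comparison groups. Defb14 rose by 3.80 ± 0.83 (SE, adjusted p = 0.00604) at 6 weeks and 2.498 ± 0.825 (adjusted p = 0.0406) at 20 weeks against normal skin. The 20-week call was lost without any single library of the 6 compared, with adjusted p from 0.055 to 0.131, and also without fibrotic 6-week replicate 1 (adjusted p = 0.0559) or treated replicate 2 (adjusted p = 0.0535). Treated skin gave -1.78 against fibrotic skin at 20 weeks (adjusted p = 0.154) and 0.72 against normal skin (adjusted p = 0.551).

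Defb3 was listed above 0 only outside normal skin. It stood at 6.63, 9.23 and 0.186 FPKM in treated skin, at 40.3, 12.3 and 3.98 FPKM in fibrotic skin at 20 weeks, at 57.7, 96.9 and 28.3 FPKM at 6 weeks, and was listed at 0 in the 3 normal libraries. The 6-week libraries were high throughout, while the lowest treated library, replicate 3, came close to 0. Against the zeros of normal skin no fold is given. The test called Defb3 at 6 weeks (adjusted p = 0.00114) and at 20 weeks (adjusted p = 0.0097), and gave an adjusted p of 0.101 in treated skin. Treated against fibrotic skin at 20 weeks gave -1.63 (adjusted p = 0.215).

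Defb4 reached lower levels with the same ordering of the fibrotic groups. It stood at 0.208, 2.16 and 0.756 FPKM in treated skin, at 7.85, 3.16 and 0.190 FPKM in fibrotic skin at 20 weeks, at 8.17, 13.2 and 2.89 FPKM at 6 weeks, and at 0, 0.388 and 0 FPKM in normal skin. Only the 6-week libraries lay wholly above normal skin, since fibrotic 20-week replicate 3 and treated replicate 1 fell below the highest normal library. Defb4 rose by 2.84 ± 0.69 (SE, adjusted p = 0.0101) at 6 weeks, and its difference at 20 weeks was 1.66 (adjusted p = 0.0869). Unlike the other defensins, it was lowest among treated libraries in replicate 1.

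**Figure D2:**
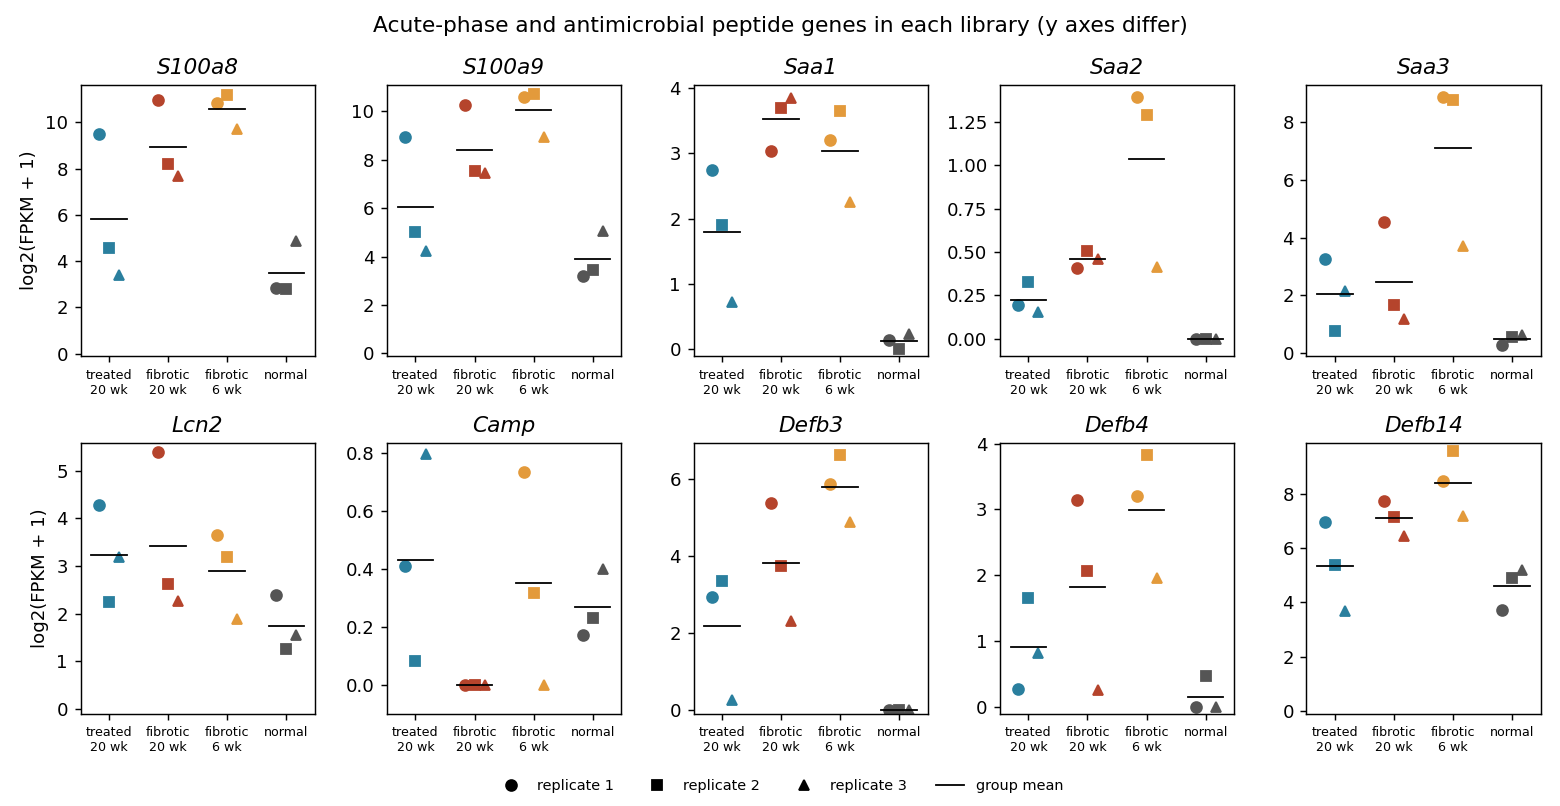
Level of each gene as log2(FPKM + 1) on vertical axes that differ between panels, with 1 point a library, the replicate number as the symbol and the group mean as a line; groups run from treated skin on the left to normal skin on the right. S100a8 and S100a9 show treated replicate 1 at 724 and 490.2 FPKM well above replicates 2 and 3, and Saa3 shows fibrotic 6-week replicates 1 and 2 at 464 and 435 FPKM far above replicate 3 at 12.2 FPKM.

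Counted over the genes, fibrotic skin at 6 weeks against normal skin had 7 of 8 tested members higher and 0 lower. Of all tested genes 39.3% were called in this comparison, 17.6% higher and 21.7% lower, and 1300 higher against 5876 lower genes, beside 2427 and 2982, when libraries were rescaled without muscle, hair shaft and cornified genes. The 7 were S100a8, S100a9, Saa1, Saa3, Defb3, Defb4 and Defb14, and each stayed called under every other setting in which it was tested. Saa1, Saa3, Defb3 and Defb4 passed the filter on low values only through treated and fibrotic libraries, so that these counts describe the members and support nothing further. The median log2 fold change was 4.80 over the tested members and 3.80 without Defb3, against -0.051 over all genes. Groups did not overlap for 8 of the 10 members, all higher, against 58.1% of tested genes in either direction, 26.6% higher and 31.4% lower.

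Fibrotic skin at 20 weeks against normal skin had 5 of 8 tested members higher and 0 lower, where 33.5% of all tested genes were called, 15.3% higher and 18.2% lower (2102 and 2503 genes, or 1097 and 5323 when rescaled in that way). The 5 were S100a8, S100a9, Saa1, Defb3 and Defb14, and the count fell to 2, Saa1 and Defb3, without normal replicate 1 or without fibrotic 20-week replicate 1. The median was 2.95 over the tested members and 2.498 without Defb3, against -0.036 over all genes. Of the 10 members, 7 lay wholly above normal skin and Camp wholly below, against 25.1% and 29.5% of tested genes, 54.6% in all.

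Treated skin against normal skin had 1 of 8 tested members higher, Saa1, where 20.7% of all tested genes were called, 7.57% higher and 13.2% lower (1042 and 1813 genes, or 1332 and 1280 with median-of-ratios scaling). Treated skin against fibrotic skin at 20 weeks had 1 of 8 lower, again Saa1, where 15.3% of tested genes were called, 4.45% higher and 10.9% lower (612 and 1496 genes, or 2328 and 704 when rescaled without muscle, hair shaft and cornified genes). The median was 1.62 against normal skin and -1.68 against fibrotic skin at 20 weeks, beside -0.065 and -0.004 over all genes. The comparisons with normal skin share its libraries, and those with fibrotic skin at 20 weeks share that group, so their counts are not independent of each other. In treated skin, Saa1, Saa2, Saa3 and Defb3 lay wholly above normal skin (14.0% of tested genes did, and 37.5% did not overlap in either direction), and Saa1 and Saa2 wholly below fibrotic skin at 20 weeks (19.2% of tested genes did). Camp lay wholly above fibrotic skin at 20 weeks, where it was listed at 0 (13.0% of tested genes lay above, and 32.2% did not overlap in either direction).

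Between the fibrotic time points limma called 0 of the 8 tested members, where 5 genes or 0.0363% of all tested genes were called, 0.00727% higher and 0.0291% lower. At an unadjusted p under 0.05 there were 2 members, Saa3 and Defb3, both lower at 20 weeks. Levels of all 10 members overlapped between 20 and 6 weeks, against 30.9% of tested genes that did not overlap. The median was -1.465 over the tested members, against 0.015 over all genes.

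**Figure D3:**
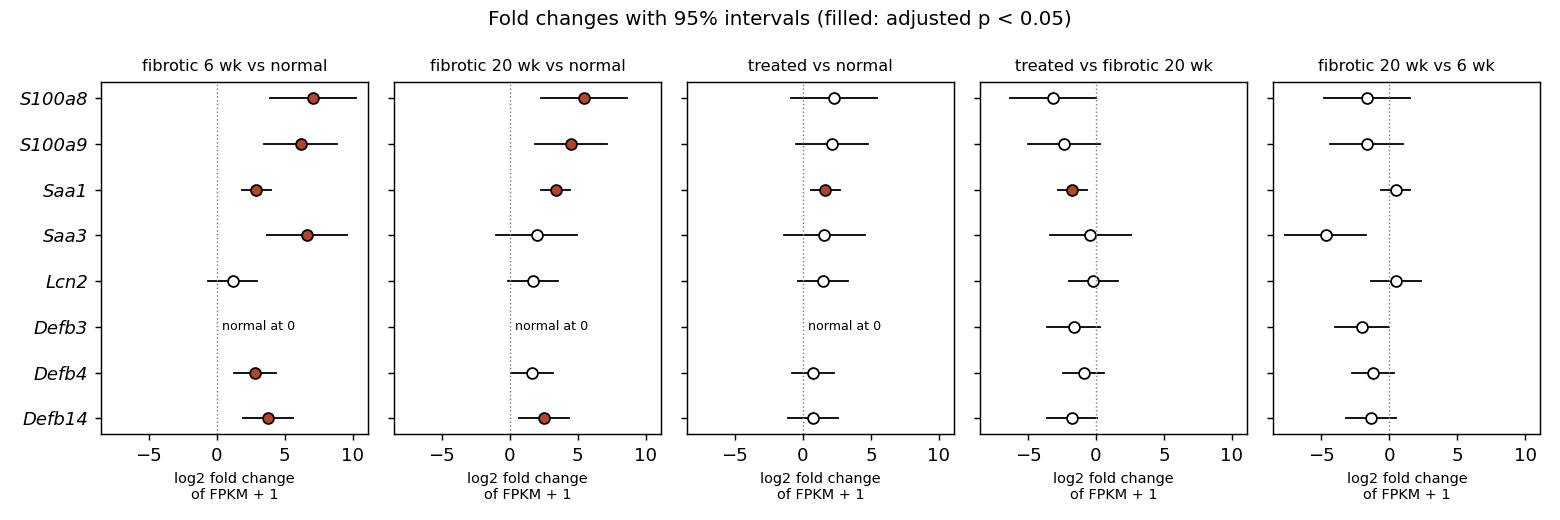
Log2 fold change of FPKM + 1 (horizontal axes) with its 95% interval for the 8 tested genes in the 5 comparisons, filled where the adjusted p was under 0.05; no fold is drawn for Defb3 where normal libraries were listed at 0. Filled points are most frequent at 6 weeks, from 2.84 for Defb4 to 7.07 for S100a8, and Saa1 has the only filled points in treated skin, 1.66 against normal and -1.73 against fibrotic skin at 20 weeks.

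The treated libraries differed widely from one another. The summed FPKM of the 10 genes was 1377, 114 and 52.8 in treated libraries, against 3559, 656 and 488 in fibrotic libraries of 20 weeks, 4242, 5364 and 1510 in fibrotic libraries of 6 weeks, and 31.3, 47.0 and 99.2 in normal libraries. Treated replicate 1 was within the fibrotic range, and treated replicates 2 and 3 were near the highest normal library. The calprotectin pair accounted for 88.2%, 47.6% and 51.5% of that sum in treated libraries and for 33.9% to 60.8% in normal ones.

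Leaving treated replicate 1 out changed the comparison with fibrotic skin at 20 weeks. It gave 4 lower members instead of 1: S100a8 at -4.97 (adjusted p = 0.00419), S100a9 at -3.80 (adjusted p = 0.0105), Saa1 at -2.21 (adjusted p = 0.00426) and Defb14 at -2.58 (adjusted p = 0.0243). The number of all genes called was 5226 without that library, beside 2108 with all 3. Leaving out treated replicate 2 or 3, or any fibrotic 20-week library, gave 0 members, beside 538 and 315 genes without treated replicates 2 and 3, and 341, 961 and 3 genes without fibrotic 20-week replicates 1, 2 and 3.

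**Figure D4:**
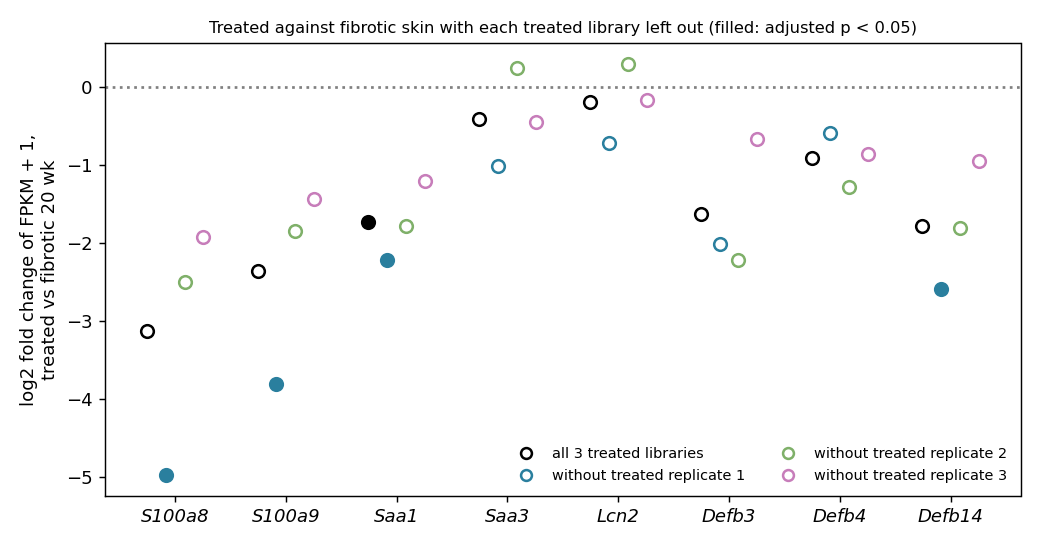
Log2 fold change of FPKM + 1 in treated against fibrotic skin at 20 weeks (vertical axis) for the 8 tested genes, with all 3 treated libraries and with each left out, filled where the adjusted p was under 0.05. Without treated replicate 1, S100a8 moved to -4.97 and S100a9 to -3.80 and both passed, whereas without replicate 3 S100a8 lay at -1.92.

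Among the inducing cytokines, the interleukin-36 genes Il1f6, Il1f8 and Il1f9 were higher in fibrotic than in normal skin and lower in treated than in fibrotic skin at 20 weeks. Of 18 such genes in the table, 11 were tested, and 5 rose in 6-week and 4 in 20-week fibrotic skin relative to normal skin, 0 were called in treated skin against normal skin (1 at an unadjusted p under 0.05), and 4 fell in treated against fibrotic skin at 20 weeks. Beside the counts of this and the following lists, 39.3%, 33.5%, 20.7% and 15.3% of all tested genes were called in these comparisons, in that order. Il1f6, which encodes interleukin-36 alpha, stood at 70.2, 22.0 and 2.82 FPKM in treated skin, at 177, 150.0 and 149 FPKM in fibrotic skin at 20 weeks, at 183, 274 and 150.0 FPKM at 6 weeks, and at 2.29, 8.30 and 3.72 FPKM in normal skin. Its fibrotic libraries were level across the time points, and its treated libraries had the same order, replicate 1 highest and replicate 3 lowest, as those of S100a8 and Defb14. Il1f6 was lower in treated than in fibrotic skin at 20 weeks (log2 fold change -3.11 ± 0.84 SE, adjusted p = 0.0347), with Il1f8, interleukin-36 beta, at -2.61 (adjusted p = 0.039) and Il18, an epidermal cytokine of the interleukin-1 family, at -1.76 (adjusted p = 0.0197). These calls rested on single libraries. The 4 lower cytokines became 6 without treated replicate 1, 1 without treated replicate 2 or 3, 1 without fibrotic 20-week replicate 2 and 0 without fibrotic 20-week replicate 1 or 3, and leaving out a 6-week or normal library gave 1 to 3.

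Il1b, the classic inducer of local acute-phase genes, was highest in the same libraries as Saa3. It stood at 7.49, 1.97 and 0.667 FPKM in treated skin, at 8.62, 3.17 and 2.33 FPKM in fibrotic skin at 20 weeks, at 84.9, 75.3 and 6.97 FPKM at 6 weeks, and at 1.06, 1.89 and 1.09 FPKM in normal skin. Again fibrotic 6-week replicates 1 and 2 were far above replicate 3. Il1b rose by 4.01 ± 0.88 (SE, adjusted p = 0.00627) at 6 weeks against normal skin. Il6, the main inducer of acute-phase genes in liver, reached at most 2.60 FPKM, in fibrotic 6-week replicate 2.

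Of 24 receptor genes for these inducers and for the products 21 were tested, with 5 higher and 5 lower at 6 weeks, 2 higher and 4 lower at 20 weeks and 0 higher and 5 lower in treated skin, each against normal skin, and 2 higher and 1 lower in treated against fibrotic skin at 20 weeks. The last count was 5 higher and 9 lower without treated replicate 1, 0 and 0 without fibrotic 20-week replicate 3, and 1 higher with 0 to 2 lower without any other library. Against normal skin, leaving out treated replicate 1 gave 8 lower at 6 weeks, 4 higher and 6 lower at 20 weeks and 8 lower in treated skin. The higher ones became 2 to 3 at 6 weeks without normal replicate 1 or 2 or fibrotic 6-week replicate 1 or 2, and 0 to 1 at 20 weeks without normal replicate 1 or 3 or fibrotic 20-week replicate 2 or 3. Il6ra and Il6st, the subunits of the interleukin-6 receptor, fell at 6 weeks by log2 fold changes of -1.46 (adjusted p = 0.000214) and -1.04 (adjusted p = 0.000106). At 20 weeks they fell by -0.709 (adjusted p = 0.00703) and -0.841 (adjusted p = 0.000323), and both were also called lower in treated than in normal skin. Tlr4, a receptor for endotoxin and for calprotectin, lay between 1.20 and 3.24 FPKM in all libraries and was called in none of the comparisons (adjusted p of at least 0.297). Tlr2, a receptor for bacterial lipoproteins, rose by 0.98 at 6 weeks (adjusted p = 0.0302), a call lost without any single normal library or without fibrotic 6-week replicate 1 or 2 (adjusted p up to 0.105).

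All 17 listed transcription factors and adaptors were tested, with 3 higher and 3 lower at 6 weeks, 4 higher and 3 lower at 20 weeks and 1 higher in treated skin, each against normal skin, and 1 higher and 2 lower in treated against fibrotic skin at 20 weeks. The counts at 6 and 20 weeks stand beside 39.3% and 33.5% of all tested genes and set this list apart in neither. Without treated replicate 1 the lower ones became 7 against fibrotic and 4 against normal skin, and without fibrotic 20-week replicate 3 the count against fibrotic skin was 0 and 0. The call against normal skin was lost without normal replicate 2 or 3, and the higher ones at 6 and 20 weeks ran from 1 to 5 and from 1 to 6 with a library left out, lowest without normal replicate 1 or fibrotic 6-week replicate 2 at 6 weeks and without normal replicate 3 or fibrotic 20-week replicate 1 at 20 weeks. Cebpb, a C/EBP factor of the acute-phase response, rose by 1.32 at 6 weeks (adjusted p = 0.0137; 0.0544 without normal replicate 1 and 0.0575 without fibrotic 6-week replicate 2). Bcl3, an atypical member of the IkB family that binds NF-kB, rose in treated skin by 1.495 (adjusted p = 0.0274), in fibrotic skin at 20 weeks by 1.45 (adjusted p = 0.0198) and at 6 weeks by 1.61 (adjusted p = 0.0109), all against normal skin. Without normal replicate 2 or 3 the treated and 20-week calls of Bcl3 were lost (adjusted p from 0.0565 to 0.0906), as was the 20-week call without fibrotic 20-week replicate 1 (adjusted p = 0.0743). Nfkbiz, which encodes an NF-kB cofactor for antimicrobial genes, and Stat3 were called in no comparison, with adjusted p of at least 0.334 and 0.103.

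Antimicrobial genes outside the 10 did not all go the same way. Of 25 in the table, 14 were tested, with 5 higher and 2 lower at 6 weeks, 3 higher and 2 lower at 20 weeks, 2 higher and 2 lower in treated skin against normal skin, and 0 higher and 4 lower in treated against fibrotic skin at 20 weeks. Defb6, another beta-defensin gene, fell: it stood at 956, 1000 and 996 FPKM in treated skin, at 935, 577 and 322 FPKM in fibrotic skin at 20 weeks, at 423, 307 and 406 FPKM at 6 weeks, and at 2196, 2312 and 2950.0 FPKM in normal skin. Every normal library exceeded every other library, whereas Defb3 and Defb14 were lower in every normal than in every fibrotic library. Its log2 fold change was -2.71 ± 0.32 (SE, adjusted p = 0.000343) at 6 weeks, -2.14 (adjusted p = 0.00147) at 20 weeks and -1.32 (adjusted p = 0.0191; 0.0786 without normal replicate 3) in treated skin.

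Slpi, which encodes a secreted protease inhibitor with antimicrobial activity, stood at 38.0, 20.2 and 15.4 FPKM in treated skin, at 120.1, 147 and 105 FPKM in fibrotic skin at 20 weeks, at 220.1, 329 and 78.6 FPKM at 6 weeks, and at 2.495, 3.20 and 2.63 FPKM in normal skin. The 3 levels did not overlap between treated, fibrotic and normal skin. Slpi was lower in treated than in fibrotic skin at 20 weeks (log2 fold change -2.38 ± 0.46 SE, adjusted p = 0.0177) and higher than in normal skin by 2.66 (adjusted p = 0.00618). Wfdc12, a related whey acidic protein domain gene, gave -3.32 (adjusted p = 0.0366) and 3.78 (adjusted p = 0.0191). The call of Slpi against fibrotic skin was lost without treated replicate 2 or 3 or fibrotic 20-week replicate 1 or 3 (adjusted p from 0.0503 to 0.0699). That of Wfdc12 was lost without any single library other than treated replicate 1 (adjusted p up to 0.0955), and its call against normal skin without normal replicate 3 (adjusted p = 0.0679). The 4 lower antimicrobial genes became 7 without treated replicate 1, 0 without treated replicate 2 or 3, and 0, 1 and 0 without fibrotic 20-week replicates 1, 2 and 3, with 2 to 4 when a normal or 6-week library was left out. The 2 lower in treated against normal skin became 7 without treated replicate 1 and 0 without normal replicate 3.

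Between the fibrotic time points limma called 0 members of each of these lists and of other acute-phase genes, with 1 inducing cytokine, 7 receptors, 1 transcription factor or adaptor, 3 antimicrobial genes and 2 acute-phase genes at an unadjusted p under 0.05. Of 12 S100 genes outside the calprotectin pair 10 were tested, with 4 higher at 6 weeks, 1 higher and 2 lower at 20 weeks and 1 higher in treated skin, each against normal skin. S100a3, which encodes a calcium-binding protein of the hair cuticle, rose by 4.28 at 6 weeks (adjusted p = 0.00753) and by 4.28 in treated skin (adjusted p = 0.0161; 0.0651 without normal replicate 3). Its FPKM was 583, 70.7 and 891 in treated skin, 70.0, 54.2 and 33.5 in fibrotic 20-week libraries, 357, 226 and 465 in 6-week libraries, and 5.03, 61.5 and 12.6 in normal skin. The summed FPKM of 65 hair shaft genes was high in much the same libraries, with 3890, 988.5 and 16890 in treated skin, 757.5, 426 and 330.5 in fibrotic 20-week libraries, 3677, 3070 and 3844 in 6-week libraries, and 75.5, 1454 and 450.1 in normal skin. Of those genes 27 rose at 6 weeks and 24 in treated skin against normal skin. With a library left out these counts ran from 5 to 49 and from 1 to 55. The part of hair shaft content in the S100a3 difference was not tested.

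Other acute-phase genes followed neither Saa1 nor Saa3 as a group. Of 21 in the table, 11 were tested, with 3 higher and 2 lower at 6 weeks, 0 higher and 2 lower at 20 weeks (3 at an unadjusted p under 0.05 in either direction), and 3 higher and 1 lower in treated skin, against normal skin, with 1 higher and 0 lower in treated against fibrotic skin at 20 weeks. The treated counts against normal skin were 0 and 0 without normal replicate 3, and 1 higher without normal replicate 1, fibrotic 6-week replicate 2, fibrotic 20-week replicate 2 or any treated library. The 3 higher at 6 weeks became 1 without normal replicate 1 or 3 or fibrotic 6-week replicate 2, and the 1 higher against fibrotic skin became 0 without fibrotic 20-week replicate 1 or 3 or treated replicate 2 or 3. Hp, which encodes the haemoglobin scavenger haptoglobin, stood at 112, 126 and 142 FPKM in treated skin, at 43.0, 58.9 and 75.5 FPKM in fibrotic skin at 20 weeks, at 134, 79.7 and 40.8 FPKM at 6 weeks, and at 36.6, 47.1 and 14.2 FPKM in normal skin. Treated libraries were alike and lay above those of normal skin and of fibrotic skin at 20 weeks, without the split seen for S100a8. Hp was higher in treated than in normal skin by 2.08 ± 0.47 (SE, adjusted p = 0.0159; 0.0571 without normal replicate 3), and its difference from fibrotic skin at 20 weeks was 1.12 (adjusted p = 0.124). Orm1, an orosomucoid gene, fell by 1.08 at 6 weeks (adjusted p = 0.0031), opposite to Saa1 and Saa3, as did Steap4 by 0.835 (adjusted p = 0.0341). The 3 higher at 6 weeks were Serpina3n by 1.355 (adjusted p = 0.00973), Cfb by 1.04 (adjusted p = 0.0223) and Hp by 1.353 (adjusted p = 0.0435). Among fibrotic 6-week libraries each of these, like Saa3, was highest in replicate 1 and lowest in replicate 3. Hp, like several acute-phase genes, is also made by fat cells, and the summed FPKM of 12 adipocyte markers was 1187, 3244 and 6046 in treated libraries, 1344, 1957 and 2146 in fibrotic 20-week libraries, 3748, 5346 and 2132 in fibrotic 6-week libraries and 2870, 1862 and 1604 in normal libraries. Treated replicate 1, at 112 FPKM of Hp, had the lowest of these sums, but Fabp4 was their largest term. Fabp4 stood at 613 FPKM in that library and at 3347, 4936 and 1896 FPKM at 6 weeks. Adipoq, another of the 12 markers, did not follow the sums. It stood at 50.2 FPKM in treated replicate 1, at 53.3, 50.5 and 24.9 FPKM at 6 weeks and at 165, 114 and 63.2 FPKM in normal skin. The median log2 fold change of the 12 at 6 weeks against normal skin was -1.093, with 0 called. The part of adipocyte content in the differences of Hp and other acute-phase genes was not tested.

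Markers of cell types that could supply these transcripts also moved. The summed FPKM of 14 activated keratinocyte markers, led by BC100530, Stfa3 and Krt16, was 21530, 6463 and 1575 in treated libraries, 36590, 29590 and 30150 in fibrotic 20-week libraries, 40670, 66800 and 41400 in fibrotic 6-week libraries and 632, 680 and 445 in normal libraries. In this sum treated replicates had the same order as for S100a8, with replicate 1 under every fibrotic library. Replicates 2 and 3 stayed above every normal library. Single markers differed from the sum. Treated replicate 1 was within the fibrotic range for Krt6a, Krt6b, Krt16, Sprr1b, Sprr2e and Sprr2h, and above it for Krt17. It was under every fibrotic library for BC100530, Stfa1, Stfa2, Stfa3, Serpinb3a, Sprr2d and Il1f9. Of these 14 markers 13 rose at each fibrotic time point and 8 in treated skin against normal skin, and 2 fell in treated against fibrotic skin at 20 weeks. Without treated replicate 1 those 2 became 13, without treated replicate 2 or 3 or any fibrotic 20-week library 0, and without any normal or 6-week library 1. The 8 became 4 and 3 without normal replicates 1 and 3 and 5 without treated replicate 2. The part of keratinocyte state in the members' differences was not tested.

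Neutrophil markers were low. Of 17 listed genes 16 were in the table and 3 were tested, 8 stayed under 1 FPKM in all libraries, among them the granule genes Elane, Ngp and Mmp8, and Fcnb was listed at 0 in all. Their summed FPKM was 22.8, 11.8 and 7.56 in treated libraries, 52.0, 17.7 and 16.7 in fibrotic libraries of 20 weeks, 36.7, 32.1 and 16.2 in fibrotic libraries of 6 weeks, and 2.98, 4.82 and 3.48 in normal libraries. Cxcr2 and Ltf carried much of these sums. Cxcr2 alone was at 18.7 FPKM in treated replicate 1 and at 22.0, 14.3 and 13.9 FPKM in fibrotic skin at 20 weeks, and Ltf at 26.0 FPKM in fibrotic 20-week replicate 1. The other 14 genes summed to 3.87, 7.68 and 6.31 FPKM in treated, 4.03, 3.17 and 2.75 in fibrotic 20-week, 24.2, 19.4 and 3.64 in fibrotic 6-week and 1.61, 2.78 and 2.30 in normal libraries, a split chosen after seeing the data. Csf3r, the receptor of the neutrophil growth factor, stood at 0.922, 0.591 and 0.528 FPKM in treated skin, at 1.01, 0.686 and 0.612 FPKM in fibrotic skin at 20 weeks, at 7.25, 5.98 and 1.01 FPKM at 6 weeks, and at 0.290, 0.550 and 0.295 FPKM in normal skin. Like Saa3, it was high in fibrotic 6-week replicates 1 and 2, and it rose at 6 weeks by 1.83 (adjusted p = 0.0082) with 0.36 at 20 weeks (adjusted p = 0.539). Cxcr2, a chemokine receptor of neutrophils, rose at both times, by 2.63 at 6 weeks (adjusted p = 0.00912) and 2.98 at 20 weeks (adjusted p = 0.00635). It was level at 12.5, 12.7 and 12.5 FPKM in the 6-week libraries, without the split of Csf3r. The list of neutrophil chemoattractants held 8 ligand or growth factor genes and C5ar1, the receptor of complement C5a. In normal skin its sum was mostly Ccl20, a chemokine gene at 4.50, 5.45 and 3.12 FPKM in treated skin, 3.19, 1.61 and 2.54 in fibrotic 20-week libraries, 3.21, 2.34 and 6.68 in 6-week libraries, and 10.5, 6.55 and 10.4 in normal skin. Without Ccl20 and C5ar1, a split chosen after seeing the data, the other 7 genes summed to 12.6, 1.77 and 1.24 FPKM in treated libraries, 13.98, 3.80 and 2.41 at 20 weeks, 69.9, 76.5 and 8.38 at 6 weeks, and 0.51, 0.748 and 1.71 in normal libraries. Of all 9 genes 7 were tested, with 5 higher and 1 lower (Ccl20) at 6 weeks, 0 higher and 1 lower (Ccl20) at 20 weeks and 0 called in treated skin against normal skin (1 at an unadjusted p under 0.05). The 5 became 2 without fibrotic 6-week replicate 1 or 2. All 5 were under 1 FPKM in every normal library and passed the filter only through fibrotic or treated libraries. So did Csf3r, and these calls describe the genes and support nothing further. The part of neutrophils in the Saa3 and calprotectin differences was not tested.

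Macrophage markers, of which all 14 were tested, rose in 11 at 6 weeks, in 7 with 1 lower at 20 weeks and in 4 in treated skin, each against normal skin, and 1 fell in treated against fibrotic skin at 20 weeks. The 7 became 3 without normal replicate 1 or 3 and 4 without fibrotic 20-week replicate 1 or 2. The 4 became 1 without normal replicate 1 or 3 or treated replicate 1 or 3 and 2 without fibrotic 20-week replicate 2, and the 1 became 3 without treated replicate 1. Their summed FPKM was 254 to 305 in treated, 390.0 to 434 in fibrotic 20-week, 350.0 to 921 in fibrotic 6-week and 125 to 250 in normal libraries. Of 12 hepatocyte markers 10 stayed under 1 FPKM in every library, including the apolipoprotein genes Apoa1 and Apob, and Tat was listed at 0 in all. The other 2, Cyp2e1 and Alb, ran from 15.6 to 99.0 and from 0.359 to 8.30 FPKM over the libraries. Cyp2e1 was lower in fibrotic skin at 20 weeks than in normal skin by -1.58 (limma, adjusted p = 0.0474), a call lost with median-of-ratios scaling. Summed FPKM of the 12 was 18.2 to 103 in treated, 17.8 to 27.9 in fibrotic 20-week, 17.1 to 43.4 in 6-week and 49.7 to 104 in normal libraries.

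**Figure D5:**
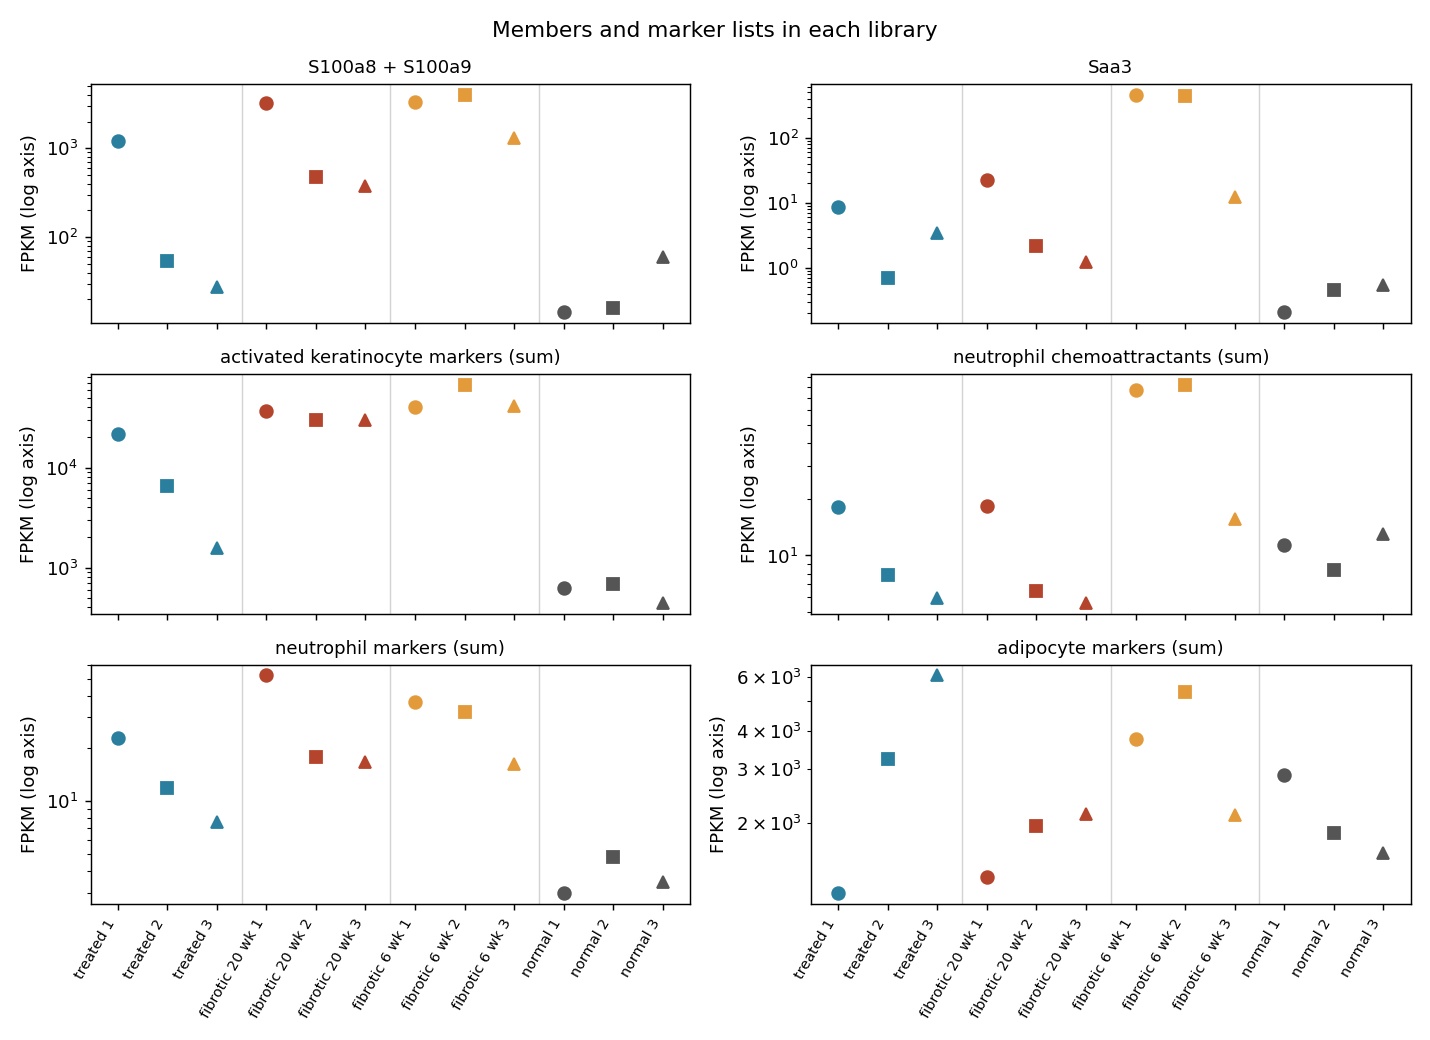
Summed FPKM per library (vertical log axes) of S100a8 with S100a9, of Saa3 and of 4 marker lists, with the 12 libraries on the horizontal axis from treated to normal skin. The calprotectin pair and the activated keratinocyte markers are higher in treated replicate 1 than in treated replicates 2 and 3, and Saa3 and the chemoattractants share the high values of fibrotic 6-week replicates 1 and 2.

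Profiles were also compared by the root mean square difference of centred log2(FPKM + 1) values over the 12 libraries, where 0 means identical shape. This is a description across genes of the same libraries. Among the 10 genes, S100a8 and S100a9 were closest at 0.545, followed by Defb3 with Defb14 at 0.979, and S100a8 with Lcn2 were farthest apart at 2.64. Outside the 10, the genes nearest to S100a8 were the late cornified envelope genes Lce3a (0.803), Lce3b (0.845) and Lce3d (0.918) and the small proline-rich gene Sprr2g (0.879), where the median over all genes was 3.20. The measure grows with a gene's own range, so nearest distances are compared as shares of that median, 0.17 for S100a8, whose nearest gene was S100a9. Outside the 10, the genes nearest to S100a9 were Sprr2g (0.698), Sprr2e (0.756), Lce3a (0.805) and Lce3f (0.846).

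For Saa3 the nearest distance was 0.41 of its median over all genes, beside 0.20 for S100a9, 0.22 for Saa1, 0.33 for Defb14, 0.39 for Defb4, 0.40 for Defb3 and 0.51 for Lcn2. The genes nearest to Saa3 were Il1b (1.21), Prl2c3 (1.26), Sprr2j-ps (1.35) and the chemokine genes Cxcl2 (1.35) and Cxcl5 (1.38). For Saa1 they were Serpina9 (0.321), Lce1i (0.403), Dnmt3l (0.422), Lce1d (0.425) and Atp13a4 (0.451). For Lcn2 they were Pglyrp1 (0.599), a peptidoglycan recognition protein gene, then Pmepa1 (0.695), Prss12 (0.707), Uox (0.707) and Thbs4 (0.715). Among the defensins, Defb3 was nearest to Lce3f (0.939), the wound keratin gene Krt6a (0.947), Defb14 (0.979), Mmp12 (0.984) and Gjb6 (0.985). Defb4 was nearest to the matrix metalloproteinase gene Mmp3 (0.531), then to Gsta4 (0.533), Mmp10 (0.574), Ctsk (0.619) and Dsc2 (0.669). Defb14 was nearest to Fam162a (0.588), Pla2g4d (0.623), Klk12 (0.682), Il1f9 (0.684), which encodes interleukin-36 gamma, and Cgref1 (0.697).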

How the data were processed

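Skin was macrodissected, and per the labels' protocols 250 ng of RNA a sample was made into stranded libraries of polyadenylated RNA, sequenced in paired-end runs of 101 cycles. The authors deposited 1 table of FPKM values, which holds every library in its own column. The submitters' processing notes name Cufflinks 2.2.1, TopHat2 2.0.13 and Bowtie2 2.2.3 on mm10, with cutadapt 1.7.1, without saying what each did. No source used here gives the annotation or any scaling between libraries. Depth is unknown, so no counting error is given. Low values of library pairs differed by repeating steps, from which depths relative to normal replicate 1 of 0.62 to 1.09 were read, but only 54 of 66 pairs gave the same relation within 0.15 on the log2 scale, so these were not used.

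From the deposited values, log2(FPKM + 1) was computed and fitted with limma 3.58.1 in R 4.3.3, with a mean for each of 4 groups, a variance trend and 2-sided tests. The 13761 genes that reached 1 FPKM in 3 or more libraries were tested, and p-values were adjusted by Benjamini-Hochberg within each of 5 comparisons. Some listed genes outside the 10, among them Csf3r, Prtn3 and Wfdc12, passed this filter only through treated or fibrotic libraries. Their calls against normal skin only describe those genes. The 10 genes, the other lists, the tests and the alternatives were chosen with earlier results of these data known. Besides the 10 genes, up to 3 called genes of a list with a 2-fold change and no overlap are named per comparison, with the 3 highest markers of each cell type, the 5 nearest profiles of each gene, and Il1b, Il6, Il17a, Tlr4, Tlr2, Nfkbiz, Stat3 and Cebpb. Any other named gene was chosen after its values were seen, which includes the markers given as examples of low values. The fit was tested on simulated data. No libraries were identical. Deviations of equal replicate numbers correlated at 0.159, 0.227 and 0.108 between 6-week fibrotic and normal libraries. These correlations are weak, and those of unequal numbers were not computed. It is therefore not known whether the numbers pair libraries. Sequences and coordinates are from RefSeq, build GRCm38.p6, and transcript identities are from global alignments in Biopython 1.88.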

Additional observations from a re-analysis of the deposited data

How the results depend on the processing

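The 7 members called in fibrotic skin at 6 weeks against normal skin stayed within 6 to 8 under all alternatives, and no fold change of a called member changed sign. In fibrotic skin at 20 weeks against normal skin the count of 5 ran from 2 to 5 with a library left out, and it was 4 without a filter, 6 with a pseudocount of 0.1 (Defb4 added) and 6 with the replicate block (Lcn2 added). In treated against normal skin the count of 1 became 2 with a pseudocount of 0.1 and with the replicate block, 0 without a filter and 0 with only the groups compared, and ran from 0 to 2 with a library left out. In treated against fibrotic skin at 20 weeks the count of 1 became 0 with a pseudocount of 0.1, without a filter, with only the groups compared and with the replicate block, and ran from 0 to 4 with a library left out. Between the fibrotic time points 0 members became 1 without fibrotic 6-week replicate 3. The cause was not tested. Whether the replicate numbers pair libraries is not known. For 6 weeks against normal skin, where the block kept 7, all 3 correlations of equal numbers exceeded 0.1. In no other comparison did all 3 do so (correlations from -0.35 to 0.291). Among calls named for genes outside the 10, 27 were put through these alternatives, after seeing the data. The calls of Ccl20, Serpina3n, Cfb, Steap4 and Cyp2e1, of Hp at 6 weeks, and of Il6ra and Il6st at 20 weeks and in treated skin, were not among them. None of the 27 changed sign, but 15 were lost in at least 1 setting. All 6 against fibrotic skin at 20 weeks, called in 5 to 16 of 19 settings, and 5 of 7 in treated against normal skin were lost with only the groups compared. At 6 weeks 9 of 11 held throughout.

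Counts of all genes called moved further. At 6 weeks against normal skin they were 5409, and 3490 without fibrotic 6-week replicate 2. At 20 weeks they were 4605, with 3061 without normal replicate 3 and 3026 without fibrotic 20-week replicate 1. In treated against normal skin they were 2855, with 138 for the 2 groups alone, 1748 without normal replicate 2 and 851 without normal replicate 3. In treated against fibrotic skin at 20 weeks they were 2108, with 3 for the 2 groups alone and 1365 with the replicate block, and 3 to 5226 with a library left out. Between the fibrotic time points they were 5, with 33 at a mean of at least 5 FPKM, 478 for the 2 groups alone and up to 550 with a library left out.

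Rescaling to equal totals without muscle, hair shaft and cornified genes moved the median log2 fold change of all genes to -0.356 in 6-week fibrotic, -0.32 in 20-week fibrotic and -0.088 in treated skin, each relative to normal, and to 0.249 in treated against fibrotic skin at 20 weeks. It gave 1300 higher and 5876 lower genes at 6 weeks, 1097 and 5323 at 20 weeks, and 2328 and 704 in treated against fibrotic skin. Median-of-ratios scaling gave 1332 higher and 1280 lower in treated against normal skin. Neither scaling changed the number of members called. Rescaling gave 3 higher and 10 lower receptors at 6 weeks, 0 and 6 at 20 weeks and 3 and 0 in treated against fibrotic skin. It gave 6 higher and 1 lower transcription factors or adaptors and 4 and 0 acute-phase genes in treated against fibrotic skin, and 1 and 5 acute-phase genes at 6 weeks.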

Other observations

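Several genes differed widely between the libraries of a group. Apart from Il17a and Prtn3, these genes were chosen after their values were seen. Il17a and Il17f, which encode cytokines that induce epidermal antimicrobial genes, stood at 2.75 and 2.21 FPKM in treated replicate 3, and Il17a was at most 0.0788 and Il17f at most 0.0523 FPKM in the other libraries. In the same library S100a8 was at 9.58 and Defb14 at 11.7 FPKM, the lowest of the treated libraries. Il19 and Il24, cytokines of the interleukin-20 family, stood at 12.4 and 14.9 FPKM in treated replicate 1, where S100a8 was at 724 FPKM. In treated replicates 2 and 3, Il19 stood at 0.159 and 0.0260 FPKM and Il24 at 0.174 and 0.0548 FPKM. Il24 was also at 8.235, 9.41 and 0.963 FPKM in fibrotic 6-week libraries and at 4.03, 2.97 and 0.282 FPKM in 20-week ones. Il19 was at 1.07, 1.39 and 1.31 FPKM in fibrotic 6-week libraries and at 3.41, 1.305 and 0.638 FPKM in 20-week ones. Normal libraries had Il24 listed at 0 and Il19 at 0.0336 FPKM at most.

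Ltf, which encodes lactoferrin, an iron-binding protein of neutrophil granules and glandular epithelia, stood at 26.0 FPKM in fibrotic 20-week replicate 1. It lay at 0.227 and 0.0644 FPKM in the other 20-week fibrotic libraries. That library also had the highest Lcn2, at 40.8 FPKM. Retnlg and Clec4e, markers of mature and activated neutrophils, stood at 7.95 and 6.08 FPKM in fibrotic 6-week replicate 1, at 5.21 and 5.94 FPKM in replicate 2 and at 0.433 and 0.537 FPKM in replicate 3, the libraries in which Saa3 was at 464, 435 and 12.2 FPKM. Prtn3, a protease gene of neutrophil precursors, rose in treated against normal skin by a log2 fold change of 1.30 (limma, adjusted p = 0.00907), with 1.28, 4.18 and 3.05 FPKM in treated libraries and 0.576, 0.482 and 0.374 FPKM in normal libraries. It was highest in treated replicate 2, where S100a8 was at 22.4 FPKM.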
